A study of Mus musculus with 4 samples.

Results

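The genes Stab1, Stab2, Lyve1, Fcgr2b, Clec4g, Oit3, Kdr, Eng, Pecam1 and Cdh5 were followed in mouse liver as markers of the sinusoidal endothelium. They were chosen by name, as the rows of the count table that carry these 10 symbols, out of 22155 symbols in all. All 10 were counted in every library, with 367 to 3065 counts each, and all 10 passed the filter on low counts that left 13309 genes for testing. The libraries held 28791281 to 30347558 counts. Values are CPM, counts scaled to library size, with sizes corrected by TMM for differences in composition. A floor of 3 counts lies between 0.0955 and 0.110 CPM, counting error only.

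All 4 libraries were made from whole liver of wild-type C57BL/6 mice, an inbred strain, aged 8 to 10 weeks. Every mouse had been fed a Lieber-DeCarli liquid diet containing ethanol at 5% for 10 days, so the comparison group had also been exposed to ethanol. The gavage group (n = 2) was then given a binge of 5 g ethanol per kg body weight into the stomach and its livers were taken 9 h later, while the other group (n = 2) is labelled as chronic ethanol alone. The treatment protocol reads the same for all samples, so groups were taken from the titles. An ethanol-free group, a control gavage and the hour at which the other group was killed were not given in the sources used here. Separate animals for the libraries of a group are not stated, and the p-values below reflect the spread between these samples alone, which may be technical. The hepatocyte transcript Alb stood at 83277 to 110898 CPM, which matches the label of liver.

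Sinusoidal endothelial cells line the blood channels of the liver with a fenestrated wall that has no organised basement membrane, and they take up macromolecules from blood through scavenger and lectin receptors. The same cells carry general endothelial proteins, among them the receptor of vascular endothelial growth factor (VEGF), the BMP co-receptor endoglin and the junction proteins PECAM-1 and VE-cadherin. Several of the markers are not exclusive to these cells. Stab1, Lyve1, Fcgr2b, Pecam1 and Eng are also known from macrophages or other leukocytes, and Lyve1 marks lymphatic vessels.

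After the gavage most of the markers stood close to their level with ethanol alone, while Lyve1 stood at 2.30 times that level and Clec4g and Oit3 at 69.0% and 71.2% of it. The summed CPM of the 10 genes was 641 and 673 in the ethanol-alone libraries and 600 and 635 in the gavage libraries. The groups of sums did not overlap, but the gavage mean was 94.0% of the other, and the exact two-sided permutation test gave p = 0.333, the smallest value that 2 libraries against 2 allow. With library totals in place of TMM the sums of the groups overlapped, at a log2 ratio of -0.015. In bulk tissue, fewer endothelial cells and less RNA per cell cannot be told apart. With edgeR's quasi-likelihood test and Benjamini-Hochberg adjustment over all genes, 0 of the 10 markers were called, as were 0% of all tested genes. An unadjusted p under 0.05 was reached by 1 marker, Lyve1 (higher), beside 18.8% of all tested genes in either direction and 8.91% higher. Lyve1 was also the 1 marker called by DESeq2, which called 8.84% of all tested genes, 3.94% as higher. The same held for the likelihood-ratio test of edgeR with 4.13% called, whereas limma-voom called 0 markers and 0% of all.

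The fitted log2 fold change of gavage over ethanol alone was above 0 for 4 markers and below 0 for 6, with 3 to 5 above 0 over the alternatives tried. Of all tested genes, 51.7% lay above 0 and 48.3% below 0. The median was -0.07 for the markers and 0.02 for all tested genes. With library totals in place of TMM, both medians were higher, at 0.000632 for the markers and 0.097 for all tested genes. An absolute log2 fold change under 0.25 was found for 7 of 10 markers and for 38.7% of all tested genes. The latter share includes genes of low counts and was not matched to the level of the markers. The libraries did not overlap between groups for 2 markers that stood higher with gavage (Lyve1, Pecam1) and 4 that stood lower (Clec4g, Oit3, Stab2, Fcgr2b). Of all tested genes 54.7% did not overlap, 27.5% higher and 27.2% lower. For Lyve1, Clec4g, Oit3 and Pecam1 the ratio between group means was larger than the ratio between the libraries of either group. How many of all tested genes have such a ratio was not computed, so this does not set the 4 apart.

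**Figure D1:**
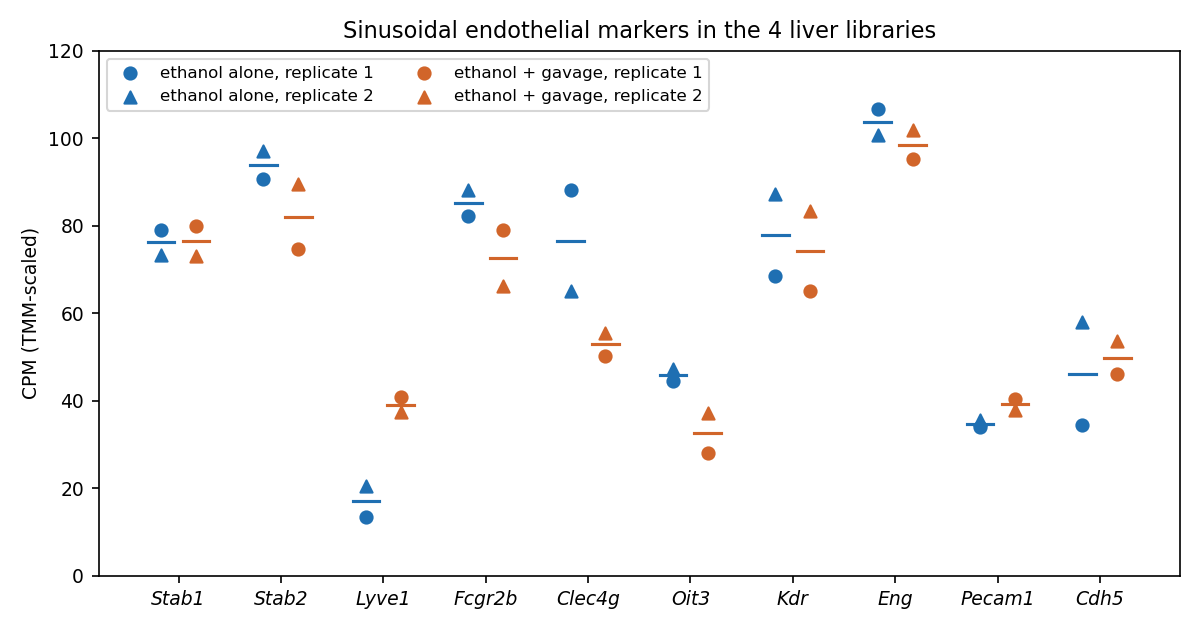
CPM of each of the 10 markers (vertical axis) in the 4 libraries, with circles for replicate 1, triangles for replicate 2 and a horizontal bar for the mean of each group. Lyve1 stands at 13.4 and 20.5 CPM with ethanol alone and at 40.8 and 37.4 CPM with gavage, while the points of Stab1, Kdr and Eng of both groups lie side by side.

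Lyve1 encodes a hyaluronan receptor of sinusoidal and lymphatic endothelium (chr7:110850607-110863239, minus strand, GRCm38, whole gene). With ethanol alone it stood at 13.4 CPM (replicate 1) and 20.5 CPM (replicate 2), and with gavage at 40.8 and 37.4 CPM. Both gavage libraries were above both ethanol-alone libraries, and the lowest gavage value exceeded the highest ethanol-alone value. The group means were 39.1 ± 2.42 against 16.99 ± 5.03 CPM (SD, n = 2 each). The log2 fold change was 1.20 with an SE of 0.24, an SE taken from the F statistic (absolute log2 fold change over root F). Its adjusted p was 0.142 in edgeR's quasi-likelihood test and 0.149 in limma-voom, against 0.00222 in DESeq2 and 0.00985 in edgeR's likelihood-ratio test. Among all tested genes it ranked 364 by p in the quasi-likelihood test.

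The same contrast appeared when Lyve1 was set against the other 9 markers of the same library, a measure that needs no scaling between libraries. Lyve1 counts were 2.14% and 3.15% of the summed counts of the other 9 with ethanol alone, and 7.30% and 6.25% with gavage. The groups did not overlap (exact two-sided permutation test p = 0.333, the smallest that the design allows). Within the libraries numbered 1, Lyve1 with gavage was 3.04 times the ethanol-alone value, and within those numbered 2 it was 1.82 times.

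Stab1 and Stab2 encode stabilin-1 and stabilin-2, large scavenger receptors that clear modified lipoproteins and other ligands from blood. Stab1 (chr14:31139013-31168641, minus strand) stood at 78.9 and 73.4 CPM with ethanol alone and at 79.9 and 73.1 CPM with gavage. The gavage values lay on either side of the other group, with a log2 fold change of 0.01 (SE 0.18) that became -0.03 with upper-quartile factors. Stab2 (chr10:86841198-87008025, minus strand) stood at 90.6 and 97.1 against 74.6 and 89.5 CPM. Both gavage libraries were the lower ones, but replicate 2 of gavage lay nearer to replicate 1 of ethanol alone than to its own replicate. The log2 fold change was -0.19 (SE 0.20, edgeR adjusted p = 0.627).

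Fcgr2b, the inhibitory Fc receptor that takes up immune complexes in sinusoids (chr1:170958617-170976547, minus strand), stood at 82.2 and 88.1 CPM with ethanol alone and at 79.0 and 66.2 CPM with gavage. The groups did not overlap in CPM, and the log2 fold change was -0.23 (SE 0.19, edgeR adjusted p = 0.550). Relative to the other 9 markers, Fcgr2b did overlap, at 14.7% and 15.1% with ethanol alone and at 15.2% and 11.6% with gavage. Macrophages carry this gene and Stab1 as well. The summed Kupffer cell markers of the gavage group stood at 61.3% of the ethanol-alone mean, and their part in the values of Fcgr2b and Stab1 was not tested. Clec4g, a C-type lectin known as LSECtin (chr8:3707064-3720651, minus strand), stood at 88.1 and 65.0 CPM with ethanol alone and at 50.3 and 55.4 CPM with gavage. The groups did not overlap, and the spread was wide with ethanol alone, where replicate 1 was 1.36 times replicate 2. The log2 fold change of Clec4g was -0.53 (SE 0.22, edgeR adjusted p = 0.274). Without replicate 1 of ethanol alone it was -0.32, and without replicate 2 it was -0.79. Oit3, a secreted zona pellucida domain protein known from liver (chr10:59422958-59441778, minus strand), stood at 44.4 and 47.2 against 28.2 and 37.1 CPM. Its gavage libraries were again the lower ones, with a log2 fold change of -0.49 (SE 0.20, edgeR adjusted p = 0.272). Relative to the other 9 markers, Clec4g stood at 15.9% and 10.7% with ethanol alone and at 9.16% and 9.55% with gavage. Oit3 stood at 7.45% and 7.55% with ethanol alone and at 4.93% and 6.21% with gavage, without overlap for either gene.

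Exons of Stab1, Stab2, Clec4g, Eng and Fcgr2b share 1.09% to 5.93% of their merged length with a gene on the opposite strand. Reads in those stretches are uncertain, because the strand setting of the counting was not given in the sources used here. The largest share, 5.93%, is that of Clec4g with the antisense gene Gm16553.

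Promoters of RefSeq (GRCm38.p6) were matched by symbol to 6 of the 10 markers, Stab1, Stab2, Clec4g, Eng, Kdr and Fcgr2b. No entry was matched for Lyve1, Pecam1, Cdh5 and Oit3. The stretch of 250 bases before the RefSeq start was searched on both strands. The words were AGGAAG, a core of sites for ETS factors such as Erg and Fli1, and AGATAA, a core of sites for GATA factors. For Stab2, Kdr and Fcgr2b the RefSeq start lies inside the gene as given by the GENCODE coordinates of this text. The Stab2 match, at position -40 from the RefSeq start, lies inside that gene, which ends at 87008025. The whole Fcgr2b stretch, chr1:170976072-170976321, lies inside its gene. AGGAAG was found in 4 of the 6 (Stab1, Stab2, Clec4g, Eng) and in 29.5% of the 32851 promoters of the table. AGATAA was found in 0 of the 6 and in 9.99% of all. Next, 3 of these sequences are shown 5′ to 3′ on the strand of the gene, with each match to AGGAAG or its reverse complement in capitals. They are the promoters of the marker with the lowest log2 fold change (Clec4g), of a scavenger receptor and of the co-receptor endoglin, and show how such matches lie. The capitals in Clec4g that follow each other without a break are 2 overlapping matches. A match is a run of letters and not a bound site.
Clec4g, chr8:3720652-3720901, minus strand: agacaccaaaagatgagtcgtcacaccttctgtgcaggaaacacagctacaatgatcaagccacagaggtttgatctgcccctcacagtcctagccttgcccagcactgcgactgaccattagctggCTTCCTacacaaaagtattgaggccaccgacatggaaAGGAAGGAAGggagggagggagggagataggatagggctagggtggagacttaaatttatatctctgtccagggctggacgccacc
Stab2, chr10:87007943-87008192, minus strand: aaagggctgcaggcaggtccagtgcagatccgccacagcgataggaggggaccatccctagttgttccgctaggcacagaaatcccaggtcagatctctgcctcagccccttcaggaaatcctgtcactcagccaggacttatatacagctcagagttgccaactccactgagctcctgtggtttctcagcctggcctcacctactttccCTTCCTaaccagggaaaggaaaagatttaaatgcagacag
Eng, chr2:32646345-32646594, plus strand: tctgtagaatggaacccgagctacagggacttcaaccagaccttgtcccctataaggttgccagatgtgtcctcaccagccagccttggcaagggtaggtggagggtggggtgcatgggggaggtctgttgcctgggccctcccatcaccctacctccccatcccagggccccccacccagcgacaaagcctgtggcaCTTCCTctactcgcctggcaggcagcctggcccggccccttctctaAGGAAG

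Kdr encodes VEGF receptor 2, through which VEGF-A acts on endothelium (chr5:75932827-75978458, minus strand). It stood at 68.6 and 87.2 CPM with ethanol alone and at 65.2 and 83.3 CPM with gavage. In both groups replicate 2 was the higher library, and this spread of 1.27 and 1.28 times within the groups exceeded the difference between them (log2 fold change -0.07, SE 0.23). Of 9 tested VEGF ligands and receptors, Kdr among them, 4 lay above 0 and 5 below 0. Of the 9, 0 were called by edgeR's quasi-likelihood test, DESeq2, limma-voom or the likelihood-ratio test. Of all tested genes, DESeq2 called 8.84%, the likelihood-ratio test 4.13%, and edgeR's quasi-likelihood test and limma-voom 0%. At an unadjusted p under 0.05, 1 gene of the list was lower, beside 9.85% of all tested genes lower. It was Vegfb, another ligand, named after its values were seen. The median log2 fold change of the list was -0.07. Vegfa, the main ligand of Kdr, stood at 154 and 159 against 120 and 128 CPM, without overlap (edgeR adjusted p = 0.387). The co-receptor Nrp1 stood at 73.4 and 70.2 against 52.3 and 62.4 CPM. Nrp2, a co-receptor for VEGF-C, stood at 22.2 and 53.2 against 57.2 and 68.5 CPM, and its ethanol-alone libraries differed more from each other than replicate 2 of that group did from the gavage libraries.

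Eng encodes endoglin, the co-receptor through which BMP9 acts on endothelium (chr2:32646595-32682669, plus strand). It was the marker with the highest CPM, at 107 and 101 with ethanol alone and at 95.3 and 102 with gavage. The groups overlapped, with a log2 fold change of -0.07 (SE 0.18) that became 0.0024 with library totals. In the list of BMP ligands, receptors, SMAD proteins and targets, Eng included, 6 of 16 tested genes lay above 0 and 10 below 0, with a median of -0.11. Here 0 were called by edgeR's quasi-likelihood test, while 6 lay lower and 0 higher at an unadjusted p under 0.05, beside 9.85% of all tested genes lower. DESeq2 called 4 of these genes lower (Id1, Id3, Smad7, Smad9), beside 4.90% of all. The likelihood-ratio test called 1 (Id3), beside 4.13% of all tested genes in either direction, and limma-voom 0. The ethanol-alone libraries of Smad9 differed 4.40 times, at 28.2 and 6.41 CPM, against 3.31 and 4.55 CPM with gavage. Id3 stood at 39.0 and 67.2 against 21.4 and 26.5 CPM. Id1, a target gene of BMP signalling, stood at 17.5 and 14.2 against 7.77 and 8.87 CPM, with a log2 fold change of -0.93 (SE 0.21) and adjusted p-values of 0.152 in edgeR and 0.0181 in DESeq2. Smad7, an inhibitor in the same pathway, stood at 19.8 and 24.4 against 13.3 and 12.4 CPM at a log2 fold change of -0.79 (SE 0.19) and adjusted p-values of 0.163 and 0.0313. Both gavage libraries lay below both others for Id1 and Smad7. The receptor Bmpr2 stood higher with gavage, at 51.3 and 69.7 against 79.5 and 93.2 CPM, and Id2 overlapped at 91.9 and 141 against 159 and 141 CPM. Hamp, the hepatocyte hormone hepcidin and a BMP target, stood at 936 and 353 against 228 and 74.3 CPM (log2 fold change -2.09, SE 0.71). Bmp6, a BMP ligand named after its values were seen, stood at 5.82 and 6.84 against 3.69 and 3.82 CPM, without overlap. The log2 fold change of Bmp6 was -0.75 (SE 0.23), with adjusted p-values of 0.206 in edgeR and 0.166 in DESeq2. These genes are also transcribed in cells other than endothelium, and which cells gave the counts was not tested.

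Pecam1 and Cdh5 encode adhesion proteins of endothelial contacts, PECAM-1 and VE-cadherin. Pecam1 (chr11:106654217-106750628, minus strand) stood at 33.9 and 35.6 CPM with ethanol alone and at 40.4 and 38.0 CPM with gavage. The groups did not overlap, but the gavage mean was 1.13 times the other (log2 fold change 0.17, SE 0.15), and edgeR gave an adjusted p of 0.577. Cdh5 (chr8:104101625-104144511, plus strand) stood at 34.4 and 57.9 against 46.1 and 53.6 CPM. The gavage values lay between those of ethanol alone, whose replicates differed 1.68 times, the widest ratio within a group for any of the 10 markers. The log2 fold change of Cdh5 was 0.11 (SE 0.29).

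Of 12 tested genes of endothelial junctions, Pecam1 and Cdh5 included, 7 lay above 0 and 5 below 0, with a median of 0.14 and 0 called by edgeR's quasi-likelihood test. At an unadjusted p under 0.05 stood 1 gene, Jam2 (higher), a junctional adhesion molecule of endothelium, beside 8.91% of all tested genes higher. Jam2 stood at 22.0 and 24.3 CPM with ethanol alone and at 50.7 and 62.5 CPM with gavage. Both gavage libraries were at more than any ethanol-alone value, with a log2 fold change of 1.29 (SE 0.19) and an adjusted p of 0.122 in edgeR's quasi-likelihood test. DESeq2 (adjusted p = 6.95e-06) and the likelihood-ratio test (adjusted p = 6.32e-04) called it, and limma-voom called 0 genes of the list. Of all tested genes, DESeq2 called 3.94% higher and the likelihood-ratio test 4.13% in either direction. The partners of cadherins at the membrane, Ctnnb1 and Ctnna1, stood at 309 ± 30.9 against 248 ± 35.5 CPM and at 124 ± 11.02 against 136 ± 15.01 CPM (gavage first). F11r, another junctional adhesion molecule, stood at 92.5 ± 15.5 against 76.4 ± 8.29 CPM.

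**Figure D2:**
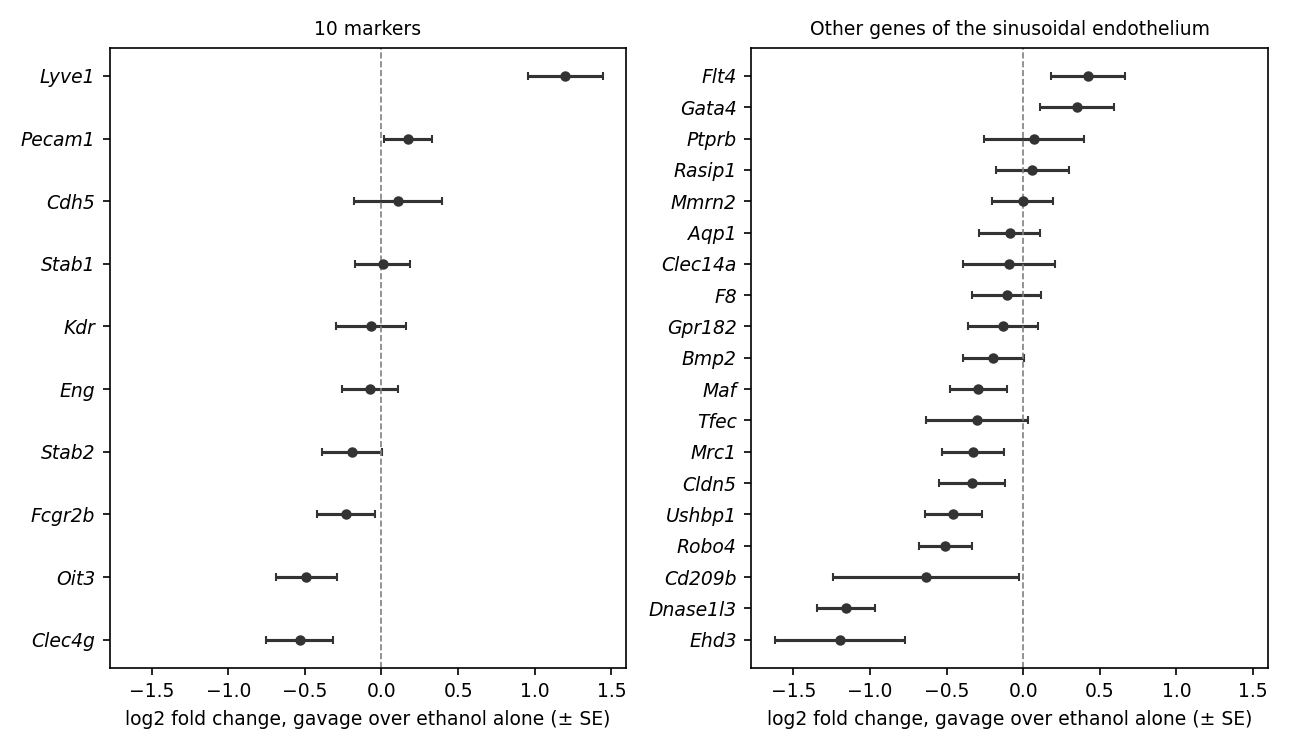
Log2 fold change of gavage over ethanol alone (horizontal axis) with its SE as bars, for the 10 markers on the left and 19 further genes of the sinusoidal endothelium on the right. Lyve1 lies at 1.20, 7 of the 10 markers lie within 0.25 of 0, and Ehd3 and Dnase1l3 lie at -1.19 and -1.16.

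Further genes known from sinusoidal endothelium gave 4 above 0 and 15 below 0 among 19 tested, with a median of -0.19. With edgeR's quasi-likelihood test 0 were called. An unadjusted p under 0.05 was found for 3, lower in each case (Dnase1l3, Ehd3, Robo4), beside 9.85% of all tested genes lower. DESeq2 called Dnase1l3 and Ehd3, beside 4.90% of all lower, the likelihood-ratio test Dnase1l3, beside 4.13% in either direction, and limma-voom 0. Dnase1l3, a secreted nuclease, stood at 111 and 107 CPM with ethanol alone and at 45.1 and 52.5 CPM with gavage. The replicates of each group were close to each other and the groups far apart, with a log2 fold change of -1.16 (SE 0.19) and an edgeR adjusted p of 0.133 (2.78e-06 in DESeq2). Ehd3, an endocytic recycling protein singled out after its values were seen, stood at 102 and 117 against 28.3 and 67.3 CPM. Its gavage libraries differed from each other, and the log2 fold change was -1.19 (SE 0.43, edgeR adjusted p = 0.242, DESeq2 adjusted p = 0.0450). Aqp1, a water channel, stood at 159 ± 11.5 with gavage against 169 ± 2.86 CPM. Mrc1, the mannose receptor of sinusoidal endothelium and macrophages, stood at 77.4 ± 5.37 against 97.1 ± 15.01 CPM. Ptprb, the vascular phosphatase of the receptor Tie2, followed the replicate number rather than the group, at 119 and 174 with ethanol alone and 118 and 190 CPM with gavage. The sum of this list was 952 and 1069 against 772 and 915 CPM, without overlap.

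Receptors of blood clearance beyond the markers included Scarb1, the receptor for high-density lipoprotein, which stood at 228 and 258 CPM with ethanol alone and at 99.7 and 148 CPM with gavage (edgeR adjusted p = 0.192, DESeq2 adjusted p = 0.00791). Lrp1, an endocytic receptor, stood at 828 ± 141 against 839 ± 162 CPM and Scarb2, a lysosomal membrane protein, at 229.8 ± 20.6 against 242 ± 4.62 CPM (gavage first). With Lyve1, Stab1, Stab2 and Fcgr2b counted in, 4 of 12 tested genes lay above 0 and 8 below 0, with a median of -0.05 (0.03 with library totals) and 0 called by edgeR's quasi-likelihood test. An unadjusted p under 0.05 was reached by Lyve1 (higher) and by 2 genes that were lower, Scarb1 and Scarf1. Of all tested genes, 8.91% were higher and 9.85% lower at that p. DESeq2 called Lyve1 and Scarb1, beside 8.84% of all tested genes, the likelihood-ratio test Lyve1 alone, beside 4.13%, and limma-voom 0.

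Other endothelial gene lists were also without a call in edgeR's quasi-likelihood test or limma-voom. Angiopoietin and Tie genes had 2 of 5 above 0 (median -0.10), with Tek, the receptor Tie2, at 20.1 ± 3.75 against 22.5 ± 2.52 CPM and Tie1 at 18.4 ± 1.31 against 20.9 ± 0.881 CPM (gavage first, as in the rest of this paragraph). Transcription factors of endothelium had 10 of 16 above 0 (median 0.13), with an unadjusted p under 0.05 for 1 higher gene, Ets2, and 1 lower gene, Elk3. Of all tested genes, 8.91% were higher and 9.85% lower at that p, and DESeq2 called 3.94% higher. In the list of transcription factors, Maf stood at 73.2 ± 7.58 against 89.6 ± 5.86 CPM and Ets1 at 47.1 ± 0.761 against 43.5 ± 3.18 CPM. Ets2 stood at 78.5 ± 22.7 against 42.2 ± 8.38 CPM, the only gene of that list that DESeq2 called (adjusted p = 0.0448). Factors made by endothelium and genes of the central vein side had 4 of 9 above 0 (median -0.12), with 1 higher at an unadjusted p under 0.05. That gene was Hgf, the hepatocyte growth factor that stellate cells also make, at 38.6 ± 8.26 against 17.9 ± 9.43 CPM. Bmp2, an endothelial regulator of hepcidin, stood at 35.7 ± 6.72 against 40.9 ± 2.82 CPM and Thbd, thrombomodulin, at 18.4 ± 4.05 against 12.7 ± 2.66 CPM. Genes of arterial and portal endothelium had 6 of 10 above 0 (median 0.14), with Ltbp4 at 52.3 ± 18.2 against 53.0 ± 2.37, Notch1 at 29.5 ± 0.418 against 33.5 ± 8.23 and Ntn4 at 11.8 ± 1.073 against 12.4 ± 0.876 CPM.

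Vasoactive genes had 3 of 8 above 0 (median -0.11). Ece1, which activates endothelin, stood at 298 ± 13.3 CPM with gavage against 318 ± 64.7 CPM, the endothelin receptor Ednrb at 24.5 ± 1.58 against 20.1 ± 2.32 CPM and the flow-responsive factor Klf2 at 10.2 ± 1.996 against 14.7 ± 5.86 CPM. Adhesion molecules for leukocytes had 3 of 6 above 0 (median 0.000334), with 2 higher, Icam1 and Selp, at an unadjusted p under 0.05, beside 8.91% of all tested genes higher. Icam1, an integrin ligand, stood at 11.4 and 17.3 CPM with ethanol alone and at 21.0 and 26.5 CPM with gavage, without overlap (edgeR adjusted p = 0.243). Vcam1 stood at 23.3 ± 1.31 against 22.9 ± 1.09 CPM and the chemokine Cxcl12 at 286 ± 39.2 against 392 ± 44.6 CPM. In these 2 lists DESeq2 and the likelihood-ratio test called 0 genes, beside 8.84% and 4.13% of all tested genes. The medians of several of these lists rest on single libraries. Leaving out a library gave -0.26 to 0.20 for the factors made by endothelium, -0.0083 to 0.16 for arterial and portal genes, -0.57 to -0.00057 for vasoactive genes and -0.23 to 0.27 for adhesion molecules. A few genes stand in more than 1 list, and the counts of the lists are therefore not independent.

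Compared per kilobase of merged exon, the 10 markers ran from 5.93 CPM per kb for Pecam1 to 26.3 for Clec4g, averaged over the 4 libraries. Clec4g (20.4 to 35.8) and Eng (23.5 to 26.4) overlapped in their ranges and stood above all others. Next came Oit3, Fcgr2b, Cdh5, Stab2, Lyve1, Kdr and Stab1, at means of 14.1, 13.6, 11.4, 10.0, 9.60, 8.42 and 7.42 CPM per kb, each overlapping its neighbour in this order. Pecam1, with a range of 5.44 to 6.48, lay below the range of Stab1, 7.11 to 7.77, but not below that of Lyve1. Lyve1 had the widest range, 4.60 to 14.0 CPM per kb. By group means it held rank 9 of the 10 with ethanol alone, at 5.82 CPM per kb, and rank 3 with gavage, at 13.4. Oit3 held rank 3 with ethanol alone, at 16.4 CPM per kb, and rank 6 with gavage, at 11.7.

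**Figure D3:**
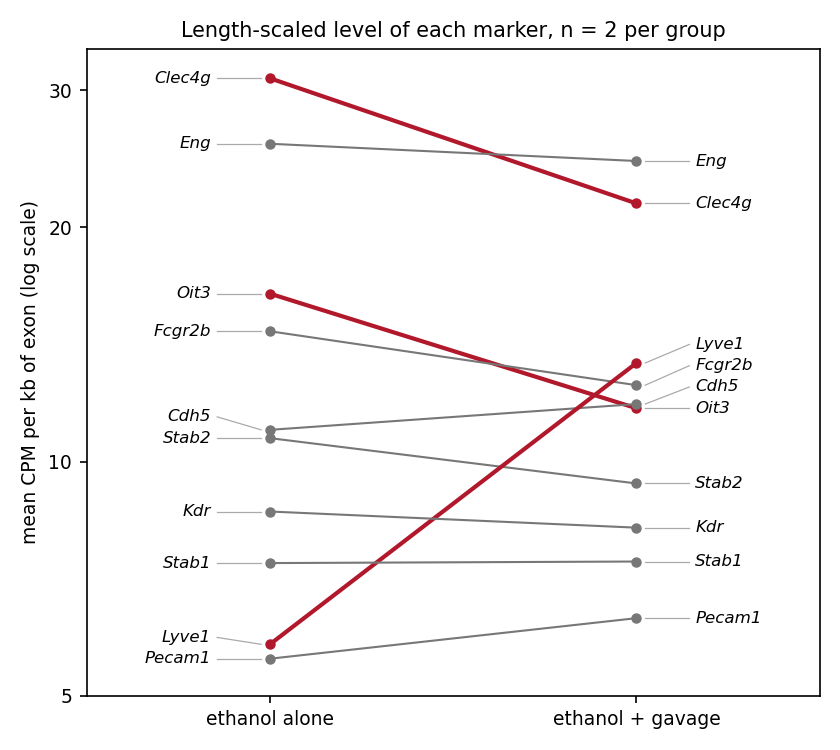
Mean CPM per kb of merged exon (vertical log axis) of the 10 markers with ethanol alone and with gavage, each line joining the 2 group means of a gene. Lyve1, Clec4g and Oit3 are in red, and the line of Lyve1 crosses those of Stab1, Kdr, Stab2, Cdh5, Fcgr2b and Oit3.

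Markers of other cell types were summed in the same libraries. The 12 Kupffer cell markers, genes of the resident liver macrophage, stood at 780 and 750 CPM with ethanol alone and at 444 and 494 CPM with gavage, 61.3% of the ethanol-alone mean. All 12 lay below 0 (median log2 fold change -0.71) without overlap of the groups, beside 27.2% of all tested genes lower without overlap. Their most abundant gene, Cd5l, stood at 110 ± 10.6 against 177 ± 6.19 CPM (gavage first). With edgeR's quasi-likelihood test 0 of the 12 were called and 9 lay lower at an unadjusted p under 0.05, whereas 6 were called by DESeq2, 1 (Folr2) by the likelihood-ratio test and 0 by limma-voom. Of all tested genes, 9.85% lay lower at that p, DESeq2 called 4.90% lower and the likelihood-ratio test 4.13% in either direction. The summed counts of the endothelial markers were 0.822 and 0.897 times those of the Kupffer list with ethanol alone and 1.35 and 1.29 times with gavage. This ratio did not overlap between the groups (exact two-sided permutation test p = 0.333, the smallest possible here). Against the 13 stellate cell markers, the corresponding ratios overlapped, at 0.779 and 0.920 against 0.740 and 0.791. The stellate sum was 823 and 731 against 811 and 803 CPM, with Dcn, its most abundant gene, at 245 ± 16.2 against 242 ± 36.8 CPM.

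**Figure D4:**
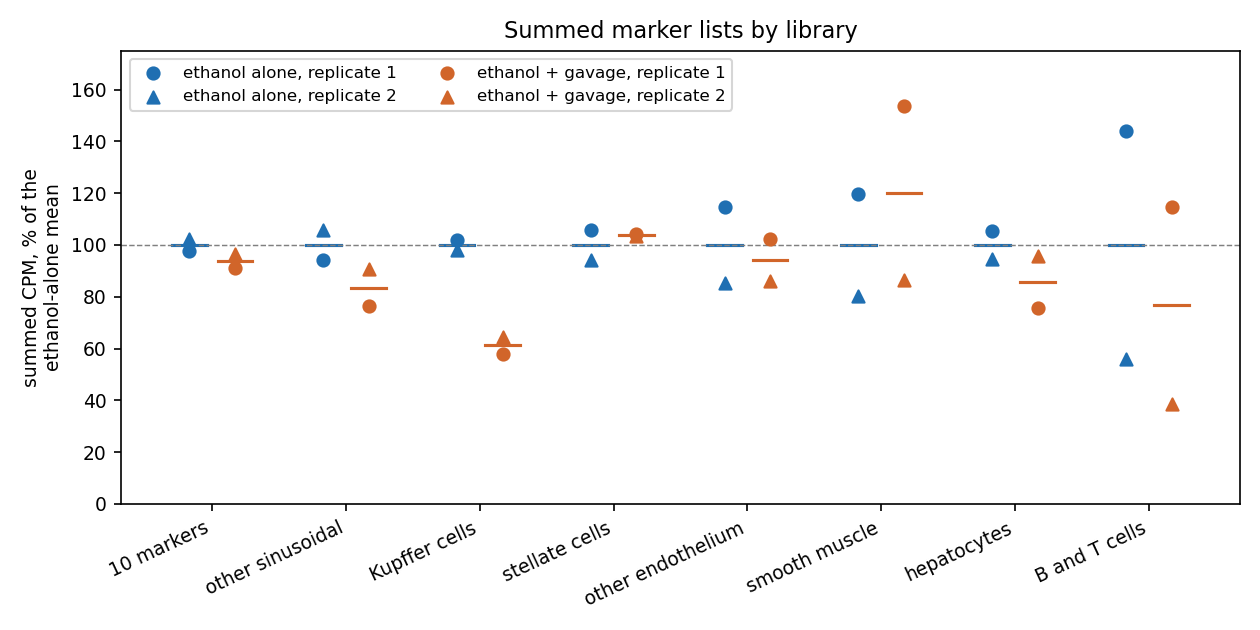
Summed CPM of 8 marker lists in each library, as a percentage of the ethanol-alone mean of the list (vertical axis), with circles for replicate 1, triangles for replicate 2 and bars for group means. The 10 endothelial markers lie between 91.3% and 102%, the Kupffer list of the gavage libraries at 58.0% and 64.6%, and smooth muscle and lymphocyte lists are higher in both libraries numbered 1.

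In both groups, most genes of the adipose and smooth muscle lists stood higher in the libraries numbered 1. Adipoq, specific to fat cells, stood at 5.53 (ethanol alone) and 8.92 (gavage) CPM there, against 0 and 0.0664 CPM in the libraries numbered 2. Cfd, another adipose gene, stood at 23.0 CPM in both libraries numbered 1 and at 0 in both numbered 2. Myh11, the myosin of smooth muscle, stood at 17.4 and 64.8 CPM in the libraries numbered 1 and at 1.78 and 3.26 CPM in those numbered 2. With gavage, Cidec (15.7 and 33.9 CPM), Car3 (549 and 558 CPM) and Mylk (81.3 and 119 CPM) were lower in number 1, given first. All other genes of these lists were higher in number 1 in both groups. The list of 8 adipose genes summed to 2019 and 1927 CPM with ethanol alone and 611 and 593 CPM with gavage, since Car3, which hepatocytes also transcribe, gave most of it (1950 ± 35.7 against 553 ± 6.35 CPM). The smooth muscle list summed to 177 and 119 against 228 and 128 CPM, with Mylk its most abundant gene (117 ± 4.68 against 100.2 ± 26.7 CPM), and the list of B and T cells to 9.15 and 3.57 against 7.29 and 2.46 CPM, with Cd79b highest (1.25 ± 1.02 against 0.921 ± 0.409 CPM). Of the 10 markers, Stab1 alone was higher in number 1 than in number 2 in both groups. Stab2, Kdr, Cdh5 and Oit3 were higher in number 2 in both groups, and the other 5 in 1 group each. The source of the adipose and smooth muscle transcripts, and what it added to the values of the markers, was not tested.

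Genes of other vessels were also counted. Of all tested genes, 18.8% had an unadjusted p under 0.05 in edgeR's quasi-likelihood test, which called 0%. DESeq2 called 8.84% of all, the likelihood-ratio test 4.13% and limma-voom 0%. The list of continuous or capillarised endothelium had 3 of 7 tested genes above 0 (median -0.14, and -0.47 to 0.077 with a library left out) and 0 called, with 0 at an unadjusted p under 0.05 and 0 called by DESeq2, limma-voom or the likelihood-ratio test. Its sum was 139 and 103 against 124 and 104 CPM, higher in both libraries numbered 1. Plvap, the protein of diaphragms, stood at 45.6 ± 4.07 against 50.8 ± 4.10 CPM (gavage first), Cd9 at 27.03 ± 11.3 against 26.3 ± 7.41 CPM and Ly6a at 11.1 ± 0.981 against 15.3 ± 7.001 CPM. Lymphatic genes had 5 of 6 above 0 (median 0.32) with 0 called by any of the 4 tests and 0 at an unadjusted p under 0.05. That median was -1.23 without replicate 1 of gavage and 0.96 when ethanol alone lacked its replicate 1. Their sum was 179 and 328 against 407 and 452 CPM. Its most abundant gene was Prox1, which hepatocytes also transcribe, at 83.1 and 196 against 266 and 309 CPM. Reln, also a stellate cell gene, stood at 83.8 ± 19.7 against 69.3 ± 23.4 CPM, and Flt4, the receptor of VEGF-C, at 55.4 ± 14.1 against 41.3 ± 5.57 CPM. Mmrn1, which marks lymphatic vessels, stood at 3.59 and 3.63 CPM in the libraries numbered 1 and at 0.0991 and 0.233 CPM in those numbered 2. In the libraries numbered 2, where Mmrn1 was near 0, Lyve1 stood at 20.5 CPM with ethanol alone and 37.4 CPM with gavage. The part of lymphatic vessels in the values of Lyve1 was not tested.

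Hepatocyte markers summed to 143729 and 128720 against 102947 and 130245 CPM, with Alb at 105882 ± 7094 against 91546 ± 11695 CPM. Bile duct markers summed to 81.0 and 65.7 against 73.1 and 57.6 CPM, with Spp1 at 57.1 ± 4.73 against 51.1 ± 12.3 CPM. Neutrophil markers summed to 4.87 and 4.46 against 18.4 and 6.61 CPM, with S100a9 at 1.26 ± 0.189 against 4.96 ± 4.198 CPM. Platelet and erythroid genes summed to 202 and 97.9 against 99.5 and 77.1 CPM, with Hbb-bs at 73.8 ± 26.2 against 49.7 ± 10.1 CPM. Neutrophils and platelets carry Pecam1 and B cells carry Fcgr2b, and the part of these cells in the values of the 2 genes was not tested.

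The mean centred profile of the 10 markers was nearly flat, at -0.07 and 0.07 with ethanol alone and -0.05 and 0.04 with gavage in log2 CPM. Among 11656 other genes at 1 CPM or more, Mpdz, Slc35a1, Glrx2, Txlng and Snx6 lay nearest to it, with root mean square differences of 0.00721 to 0.0105 over the 4 libraries. Nearest to the profile of Lyve1 alone, a choice made after its values were seen, were Col12a1, Dnmt3b, Iars, Xpot and Ier3, at 0.0194 to 0.0563. Iars, the isoleucyl-tRNA synthetase, stood at 39.2 and 59.0 against 113 and 103 CPM. With 4 libraries many genes share a pattern, and nothing follows from this likeness about what the genes do.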

How the data were processed

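RNA of 4 whole-liver libraries was extracted with Trizol, per the labels, which name TruSeq as well as KAPA library preparation. The authors deposited raw read counts per gene symbol in 1 table with a column per library and no normalisation, and no column was left unused (0). Per the submitters' processing notes, the tools were STAR 2.6.0a, bcl2fastq 2.20.0.422, edgeR and HTSeq, with the build GRCm38 and no roles stated. Annotation, strand setting and the handling of multiply mapped reads were not given in the sources used here.

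In R 4.3.3, genes were kept with edgeR 4.0.16 filterByExpr (minimum count 10, minimum total count 15), which left 13309. CPM used TMM factors of 0.951 to 1.05. Gavage was compared with ethanol alone by the quasi-likelihood F-test without covariates, with Benjamini-Hochberg adjustment over all tested genes and a threshold of 0.05. The common dispersion was 0.0966. Chi-square per degree of freedom between replicates was 147 and 157, so replicates differed by more than sampling noise. DESeq2 1.42.0, limma-voom 3.58.1, the likelihood-ratio test, other scalings and filters, a replicate block and leaving out each library were alternatives. The fit was also run on simulated data with the same dispersion for every gene and independent libraries. That run does not show how the fit behaves on these data. Gene coordinates and merged exon lengths came from GENCODE M21 (GRCm38) by symbol, and promoters from RefSeq GRCm38.p6.

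The markers and gene lists were chosen with earlier results of these data known. Named genes were the 10 markers, the 3 most abundant tested genes of each endothelial list, those without overlap at an unadjusted p under 0.01, the most abundant gene of each other marker list, and the 5 with the nearest profile. Ehd3, Vegfb, Id3, Smad9, Bmp6 and other genes given only by name were chosen after their values were seen. So were the adipose, smooth muscle and lymphatic genes Adipoq, Cfd, Cidec, Myh11 and Mmrn1 and the genes nearest to Lyve1. A comparison without both libraries numbered 1 and shares of the other 9 markers were also added then.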

Additional observations from a re-analysis of the deposited data

How the results depend on the processing

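With edgeR's quasi-likelihood test, 0 genes were called among all tested and 0 among the 10 markers. DESeq2 called 1177 and 1, the likelihood-ratio test 549 and 1, and limma-voom 0 and 0. The marker called was Lyve1. Leaving out a library gave 0 to 31 genes and 0 markers, namely 12 when ethanol alone lacked its replicate 2 and 31 when gavage lacked its replicate 2. The median log2 fold change of the markers was 0.000632 with library totals and -0.25 to -0.041 with a library left out, against -0.07. The log2 ratio of the summed CPM was -0.015 with library totals and -0.15 to -0.047 with a library left out, against -0.09. Library totals moved the median of all tested genes from 0.02 to 0.10. In the remaining alternatives, apart from the replicate block given last, these results kept their direction and their side of the threshold, or stayed within 1.5 times for counts, and 3 to 5 markers lay above 0 in each. Lyve1 stayed above 0 in every alternative, at 0.90 to 1.49 with a library left out (adjusted p 0.0909 to 0.521), 0.86 without both libraries numbered 1, and 1.36 as a share of the other 9 markers. The last 2 were added after the data were seen. Without both libraries numbered 1, Clec4g stood at -0.23 and Oit3 at -0.35, values with no test.

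Among single genes, the sign of the log2 fold change turned with upper-quartile factors for Stab1 (-0.029), Vcam1 (-0.010) and Dcn (-0.019). It turned with library totals for Eng (0.0024), Lrp1 (0.049), Scarb2 (0.0016), Ltbp4 (0.064) and Ntn4 (0.0094). It turned with a library left out, where a group of 1 is assumed to vary like the other, in the following ranges: Stab1 -0.099 to 0.063, Kdr -0.26 to 0.099, Cdh5 -0.24 to 0.48, Ptprb -0.32 to 0.37, Tek -0.38 to 0.013, Lrp1 -0.23 to 0.15, Scarb2 -0.17 to 0.017, Ltbp4 -0.43 to 0.29, Notch1 -0.44 to 0.036, Ntn4 -0.19 to 0.013, Cd9 -0.47 to 0.41, Ly6a -0.92 to 0.077, Reln -0.062 to 0.61, Ece1 -0.31 to 0.077, Vcam1 -0.077 to 0.075, Dcn -0.18 to 0.16, Spp1 -0.43 to 0.059, Cd79b -1.15 to 0.78, Mylk -0.53 to 0.029. None of these genes was called in edgeR's quasi-likelihood test, and the cause was not tested.

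Medians of gene lists moved too with a library left out. They turned sign for the lymphatic list (-1.23 without replicate 1 of gavage, 0.96 when replicate 1 of ethanol alone was dropped), and for the lists of factors made by endothelium (-0.26, dropping ethanol alone 2, to 0.20, dropping gavage 1), leukocyte adhesion (-0.23, dropping ethanol alone 2, to 0.27, dropping gavage 2), continuous endothelium (-0.47, dropping gavage 1, to 0.077, dropping ethanol alone 1) and arterial and portal endothelium (-0.0083, dropping ethanol alone 1, to 0.16, dropping gavage 2). The median kept its sign at -0.57 to -0.00057 for vasoactive genes, 0.0043 to 0.12 for transcription factors, 0.039 to 0.13 for junctions, -0.22 to -0.020 for scavenger receptors, -0.24 to -0.056 for BMP genes, -0.34 to -0.12 for VEGF genes, -0.26 to -0.11 for angiopoietin and Tie genes, -0.41 to -0.15 for other sinusoidal genes and -0.79 to -0.63 for Kupffer cells. Among other cell types, the median turned sign for stellate cells (-0.050 to 0.16) and bile duct markers (-0.71 to 0.029). It also turned for B and T cells (-1.27 to 0.46), adipose genes (-5.28 to 6.40) and smooth muscle (-1.55 to 4.24). The sign held for hepatocytes (-0.56 to -0.29), neutrophils (0.49 to 2.40) and platelet and erythroid genes (-0.95 to -0.15).

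With the replicate number as a block, 410 genes and 1 marker, Lyve1 (adjusted p = 0.0469), were called. Of the other genes named by the rule, the block also called Hamp (adjusted p = 0.0196), Jam2 (0.0239), Car3 (0.0393), Dnase1l3 (0.0411) and Hgf (0.0469). The labels do not say that a number is a shared animal or day. Over 13309 genes, the deviations from the group means correlated at 0.587 between the libraries of the same number. With 2 libraries a group, both pairs give an equal value by construction, but its size is not fixed. What the libraries of a number share was not tested, and the pairing is not established.

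With 2 libraries a group, no permutation test of a single value can go below 0.333. The markers had 367 to 3065 counts per library, so counting error is not negligible where replicates lie close together, as for Pecam1. Whole liver gives no level per endothelial cell.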
